A study of Mus musculus with 4 samples.

Results

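The genes described here carry the class I route of antigen presentation, and they were measured in granulocyte/monocyte progenitors (GMP) of Icsbp-deficient and wild type mice. They are 10 genes: the class I light chain B2m, the heavy chains H2-K1 and H2-D1, the peptide transporter subunits Tap1 and Tap2, the loading factor Tapbp, the immunoproteasome subunits Psmb8, Psmb9 and Psmb10, and the proteasome activator subunit Psme1. Every probe set whose platform symbol is or includes 1 of these genes was taken, which gave 30 of the 45101 probe sets of the MOE430_2 array. Of these 30, 29 were also on the 430A array, which has 22690 probe sets. The 1 other, of Psmb8, was on the MOE430_2 array only. 3 of the 30 carry the symbols of several genes.

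Class I molecules show peptides from inside the cell at its surface, where T cells and natural killer cells read them. The proteasome cuts proteins into peptides, the Tap1/Tap2 transporter moves them into the endoplasmic reticulum, and tapasin (Tapbp) holds the empty complex of heavy chain and B2m at the transporter until a peptide binds. Interferons induce most of these genes, and the immunoproteasome subunits then replace the constitutive catalytic subunits Psmb6, Psmb7 and Psmb5. Icsbp, also called Irf8, belongs to the interferon regulatory factor family, some of whose members are known activators of class I genes.

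The 4 arrays form 2 groups of 2. On the wild type side, 1 preparation was run on the 430A array and 1 on the MOE430_2 array, each from the pooled marrow of at least 10 mice. On the Icsbp-deficient side, 1 preparation was likewise run on each array type, each from at least 8 mice. All mice were 10 to 16 weeks old and the cells were sorted by flow cytometry. The label of the wild type 430A sample gives a mixed background, C57/Bl6 and S129Ola, and no genotype. It was placed with the wild type through the design text of the series. For the other 3 samples the background, and for all 4 the H2 haplotype, is not given here, while H2-K1 and H2-D1 are known to be highly polymorphic between mouse strains. The labels also leave out which stretch of Icsbp was deleted.

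The labelled cell type was checked by its markers. Mpo, Elane, Prtn3 and Ctsg, the azurophil granule proteins of GMP, lay between 13745 and 32707 on every array (signal scaled to a trimmed mean of 500), while T and NK cell markers other than Gzmb lay between 1.89 and 119.7. Of 12 GMP marker probe sets 1 was higher in Icsbp-deficient GMP, of Fcgr3 (log2 ratio 1.00), and 1 lower, of Cd34 (-1.73). Among markers of other cells, 8 of 8 tested probe sets of late neutrophil genes were higher in Icsbp-deficient GMP (summed signal 10631 and 19931 in wild type, 29246 and 55328 in Icsbp-deficient, 430A and MOE430_2 in turn). All 8 tested probe sets of basophil, mast cell and eosinophil genes were lower (5034 and 6680 against 1580.2 and 894). So were 5 of 7 tested erythroid ones (2630 and 14075 against 1093 and 280, summed over all 9, tested or not). Dendritic cell and class II genes had 3 of 6 tested probe sets lower (1596 and 1242 against 1262 and 674, summed over all 11, tested or not). Monocyte and macrophage genes had 3 higher and 4 lower of 10, and the 1 tested T and NK cell probe set, of Gzmb, was lower. Of 4 megakaryocyte probe sets 1 was lower. Of the 2 tested endothelial and stroma probe sets 0 passed, nor did any of the 3 B cell ones by limma, with log2 ratios of 0.31 for Cd79b, 0.71 for Igll1 and 0.64 for Vpreb1. Of all tested probe sets 3.06% were higher and 2.22% lower. The filter on low signals used the mean over the 4 arrays, so some marker probe sets passed it mainly by 1 group. Fcer1a read 232 and 385 in wild type against 51.5 and 24.9 in Icsbp-deficient GMP. Car1 read 202 and 472 against 43.1 and 2.52, and the late neutrophil gene Cd177 99.4 and 68.6 against 909 and 1067. Class I genes are active in nearly all nucleated cells. The part of these other cells in the class I values was not tested, and in such bulk samples a change in cell type shares cannot be told apart from a change of RNA per cell. The targeted gene was still read on the Icsbp-deficient arrays. Its probe set 1416714_at had a log2 ratio of -0.48 ± 0.16 (-0.13 by 430A and -0.83 by MOE430_2, limma adjusted p = 0.117). Its other probe set, 1448452_at, was at 0.06 ± 0.12 (adjusted p = 0.834). Since the deleted stretch is unknown, neither probe set checks the labels.

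Start regions are printed here for the members whose levels are set side by side later on, since they show how alike the upstream sequences of the heavy chains are and what Tap1 shares with Psmb9. They are the RefSeq windows of 250 bases before to 50 after the annotated start, on build GRCm38.p6, and 9 of the 10 genes had a window. H2-K1 had 2 overlapping ones, of which the first is shown. Capitals mark matches to any of 4 motifs, searched on both strands: an interferon regulatory factor (IRF) element (GAAANNGAAA), an Ets-IRF composite (GGAANNGAAA), a STAT element (TTCNNNGAA) and the kappaB motif.
H2-K1, chr17:34000298-34000597, minus strand: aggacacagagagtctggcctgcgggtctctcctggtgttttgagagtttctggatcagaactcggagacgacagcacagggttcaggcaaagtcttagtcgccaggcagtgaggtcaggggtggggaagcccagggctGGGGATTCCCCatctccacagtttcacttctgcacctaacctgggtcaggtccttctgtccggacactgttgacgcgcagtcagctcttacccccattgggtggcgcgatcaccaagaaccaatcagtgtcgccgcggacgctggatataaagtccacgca
H2-D1, chr17:35262844-35263143, plus strand: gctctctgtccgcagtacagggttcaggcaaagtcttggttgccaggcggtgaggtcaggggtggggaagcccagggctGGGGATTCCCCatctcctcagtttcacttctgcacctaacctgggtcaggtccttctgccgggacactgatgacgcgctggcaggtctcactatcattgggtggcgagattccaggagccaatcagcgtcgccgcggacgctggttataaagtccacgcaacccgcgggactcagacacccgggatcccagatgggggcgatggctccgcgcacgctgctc
B2m, chr2:122147437-122147736, plus strand: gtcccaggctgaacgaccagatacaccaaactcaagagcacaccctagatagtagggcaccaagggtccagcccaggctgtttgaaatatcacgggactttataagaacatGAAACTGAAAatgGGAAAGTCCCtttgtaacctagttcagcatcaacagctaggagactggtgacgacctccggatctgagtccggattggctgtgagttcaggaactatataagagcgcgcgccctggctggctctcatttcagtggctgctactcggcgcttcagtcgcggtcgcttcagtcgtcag
Tap1, chr17:34187306-34187605, plus strand: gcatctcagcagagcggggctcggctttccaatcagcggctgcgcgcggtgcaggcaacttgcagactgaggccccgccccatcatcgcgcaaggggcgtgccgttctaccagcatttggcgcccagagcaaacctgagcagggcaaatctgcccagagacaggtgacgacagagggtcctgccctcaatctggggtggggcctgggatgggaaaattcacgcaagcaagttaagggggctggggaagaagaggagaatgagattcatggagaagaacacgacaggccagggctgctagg

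The H2-K1 and H2-D1 windows were 90.4% identical over a local alignment of 228 positions. Both held the same run with 2 overlapping matches to the kappaB motif, starting 111 bases before the H2-K1 start (125 in its other window) and 171 before the H2-D1 start. The B2m window held an IRF element 139 bases and a kappaB match 126 bases before its start. Tap1 and Psmb9 are transcribed away from each other, and their windows shared 275 bases, so the Tap1 sequence above is largely that of Psmb9 on the other strand. No match to the 4 motifs was found in the Tap1, Psmb9, Tapbp and Psmb10 windows. The Psmb8 window held a STAT element 97 bases before its start, and that of Psme1 held an IRF element and an overlapping Ets-IRF composite after its start. Of all 32851 windows in the table, 3.44% held the IRF element, 2.72% the Ets-IRF composite, 8.30% the STAT element and 8.46% the kappaB motif. The 4 patterns are strict, and looser forms of these elements were not searched. A window without a match, such as the heavy chain windows for the IRF element, can therefore still hold a variant of one. The matches are descriptions of letters, and binding was not measured.

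Probe sets of the class I heavy chains gave higher signals in Icsbp-deficient GMP. The 9 member probe sets that passed the test all carry the symbol H2-K1, H2-D1 or both, and were 1.41-fold to 1.90-fold higher (log2 ratios 0.50 to 0.93, n = 2 ratios each, 1 per array type). Without the dimmest, 1450170_x_at, whose Icsbp-deficient arrays carried it past the filter on low signals, 8 of 20 passed, at 1.41-fold to 1.86-fold. For these polymorphic genes a difference in transcript level and one in how well an allele matches the probes cannot be told apart here. The tested probe sets of B2m, Tap1, Tap2 and Tapbp had ratios from 0.17 to 0.52, above 0 on both array types, and did not pass. With 1 probe set per gene, 1 of B2m and 1 of Tap1 did. The ratios of the tested probe sets of Psmb8, Psmb9, Psmb10 and Psme1 lay between -0.36 and 0.36, and these probe sets did not pass.

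Of the 29 member probe sets on both array types, 21 passed the filter on low signals and were tested. Of these 9 were higher and 0 lower at a limma adjusted p under 0.05, against 3.06% higher and 2.22% lower among all 13576 tested probe sets. At an unadjusted p under 0.05 the members counted 16 of 21, against 18.7% of all tested probe sets. On both types the ratio lay above 0 for 17 of the 21, against a background of 29.9%, and below 0 for 2, against 32.9%. The median log2 ratio of the 21 was 0.50, that of the 11 heavy chain probe sets among them was 0.60, and that of all tested probe sets was -0.01. Both Icsbp-deficient arrays lay above both wild type arrays, in scaled signal, for 10 of the 21 (background 11.5%), and below them for 1, Psmb8 (background 13.1%). Many of these probe sets read the same or near-identical transcripts, so they are not independent counts of genes. The calls rest on normalization within each array type, on that type as a block and on the error borrowed from other probe sets. With no block and with quantile normalization across all 4 arrays, 0 member probe sets passed. Without an intensity trend in the variance 3 did, and with dim probe sets kept in 4 did.

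**Figure D1:**
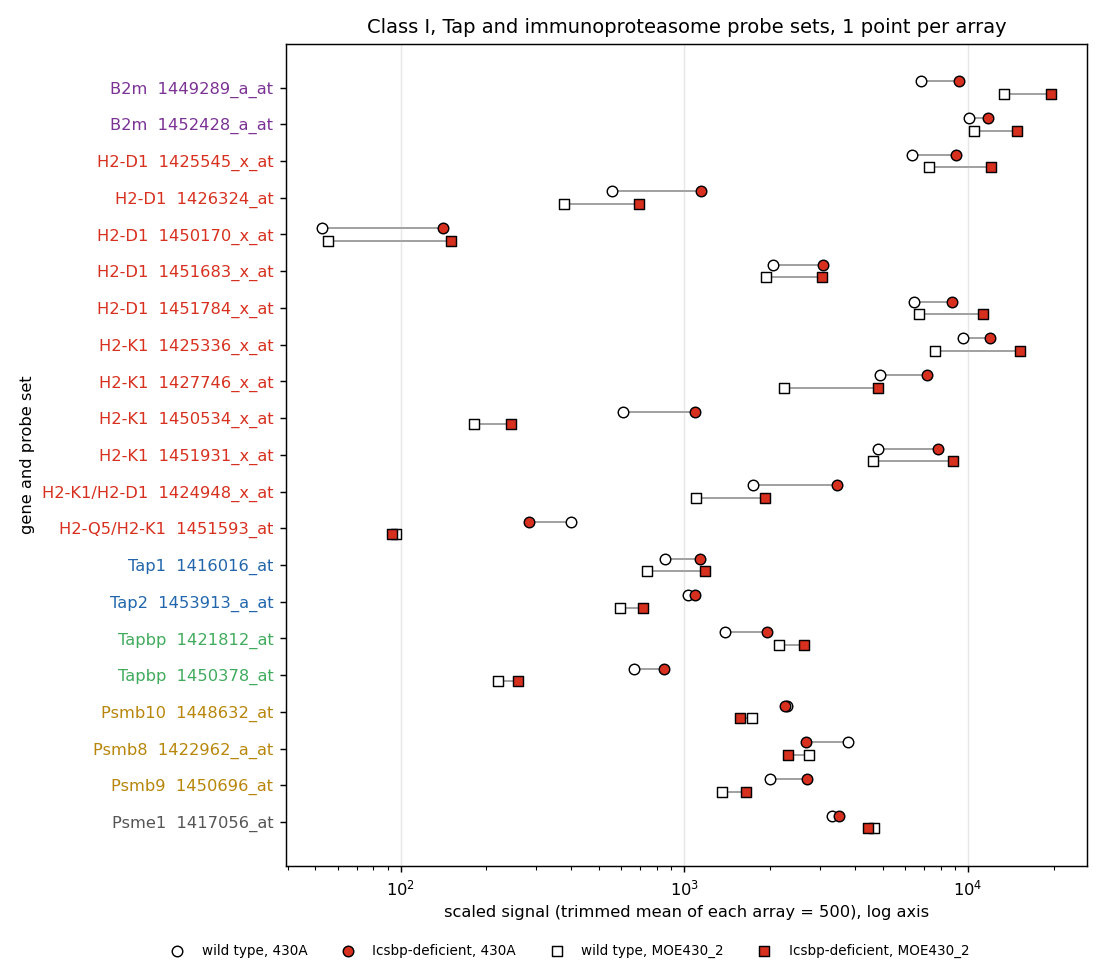
Scaled signal (log axis, each array's trimmed mean set to 500) of the 21 tested member probe sets, 1 row per probe set. Circles are 430A and squares MOE430_2 arrays, open symbols wild type and filled ones Icsbp-deficient; for H2-D1 1426324_at the filled symbols, at 1148 and 694, both lie to the right of the open ones, at 556 and 376.

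H2-D1 encodes the heavy chain of the H2-D molecule. Scaled signals of its probe set 1425545_x_at were 6346 for wild type against 9063 for Icsbp-deficient GMP by 430A, and 7275 against 12069 by MOE430_2. The log2 ratio, taken after quantile normalization within each array type, was 0.51 ± 0.09 (limma moderated SE, n = 2, adjusted p = 0.0107). Both Icsbp-deficient arrays lay above both wild type ones. Probe set 1451784_x_at gave 6445 and 8796 (430A), then 6711 and 11256 (MOE430_2), wild type first as in all pairs that follow, with a ratio of 0.50 ± 0.10 (adjusted p = 0.0148). The signals of 1451683_x_at were 2061 and 3084, then 1937 and 3053, a ratio of 0.60 ± 0.12 (adjusted p = 0.0159). These 3 probe sets are marked _x_at, which by the maker's naming means that some of their probes can also match other transcripts. The 1 passing probe set without that mark, 1426324_at, read 556 and 1148, then 376 and 694, and its ratio was 0.90 ± 0.15 (1.86-fold, adjusted p = 0.0069). The groups were again apart. The dimmest, 1450170_x_at, read 53.1 and 142 and then 55.5 and 150.4, a ratio of 0.93 ± 0.23 (adjusted p = 0.0419). Its wild type signals lay near the offset of 50, and it passed the filter on low signals by its mean over the 4 arrays, to which the Icsbp-deficient arrays gave most.

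H2-K1 encodes the heavy chain of the H2-K molecule. Its brightest probe set, 1425336_x_at, read 9626 and 11904 by 430A and 7655 and 15205 by MOE430_2, so both Icsbp-deficient signals were above both wild type ones. The ratio was 0.51 ± 0.12 (limma adjusted p = 0.0397), made up of 0.22 by 430A and 0.80 by MOE430_2. Of the 9 passing probe sets 7 had the larger ratio on MOE430_2. The signals of 1427746_x_at were 4876 and 7187, then 2237 and 4813, with a ratio of 0.78 ± 0.14 (adjusted p = 0.00891). Its Icsbp-deficient MOE430_2 array lay below the wild type 430A array, so the groups overlapped across types and differed only within each. Probe set 1451931_x_at read 4833 and 7839.9, then 4639 and 8851, with ratios of 0.65 and 0.81 and a mean of 0.73 ± 0.10 (1.66-fold, adjusted p = 0.00241). Probe set 1450534_x_at was at 606 and 1095, then 181 and 246, and its ratio of 0.59 ± 0.16 missed the threshold (adjusted p = 0.069). Of the 4 tested probe sets with H2-K1 as their only symbol 3 passed, and of the 5 with H2-D1 alone 5 did, or 4 of 4 without 1450170_x_at.

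The probe sets that name several genes differed among themselves. 1424948_x_at, with the symbols H2-K1 and H2-D1, read 1753 and 3455, then 1096 and 1921, a ratio of 0.88 ± 0.13 (1.84-fold, limma adjusted p = 0.00337). Its 2 Icsbp-deficient signals lay above the 2 wild type ones. 1451593_at, with H2-Q5 and H2-K1, read 399.8 and 284, then 96.6 and 93.6. It was the only tested heavy chain probe set with a ratio under 0, at -0.21 ± 0.20 (adjusted p = 0.64), and its ratios on the array types, -0.44 and 0.03, were of opposite sign. Which of the genes it reads cannot be told from its label. The other 5 heavy chain probe sets were too dim to be tested. They are 1425614_x_at, 1427651_x_at, 1451934_at and 1452544_x_at of H2-D1 and 1422348_at of Gm38417, H2-Q2 and H2-D1, and no array read more than 144 from any of them.

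**Figure D2:**
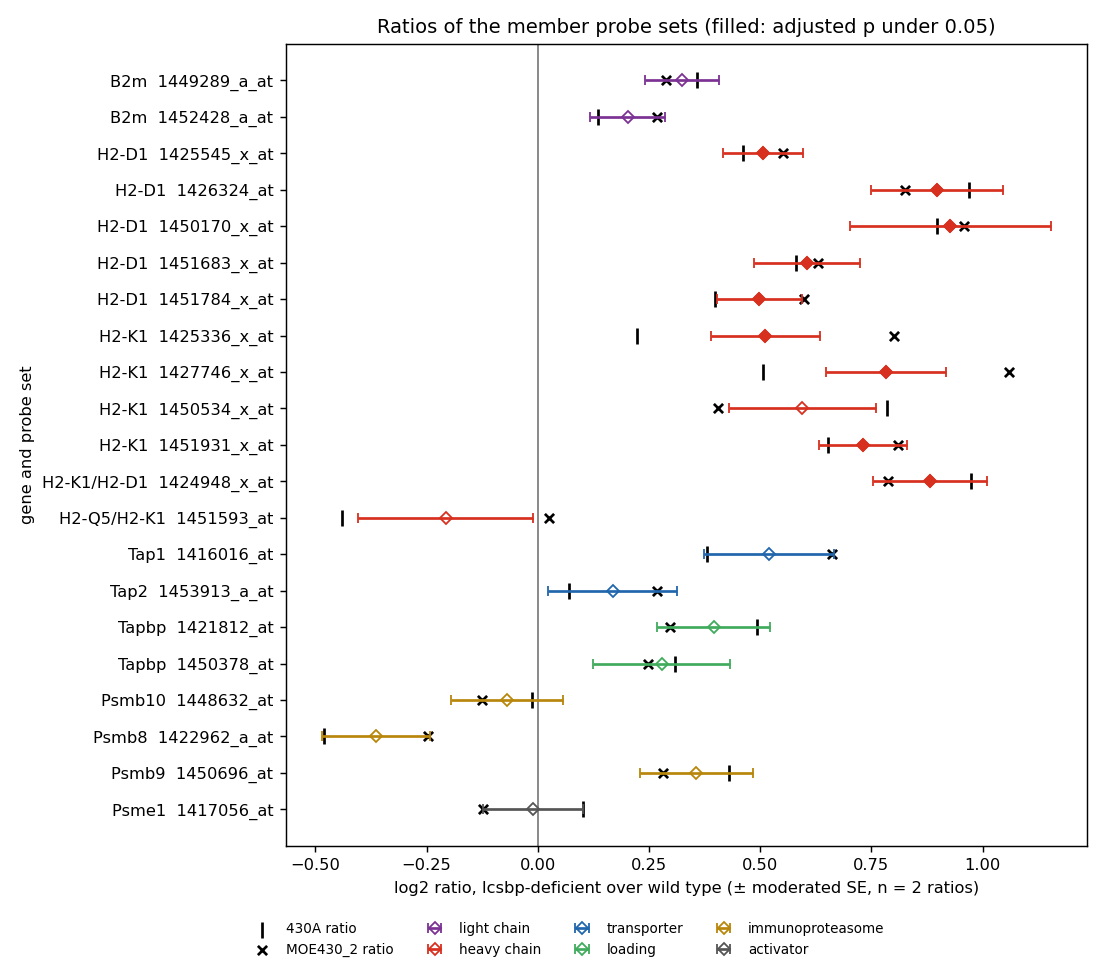
Log2 ratio of Icsbp-deficient over wild type for the 21 tested member probe sets. Diamonds are the mean of the 2 array types ± moderated SE, filled where the limma adjusted p was under 0.05, and bars and crosses are the 430A and MOE430_2 ratios; the 9 filled diamonds are all class I heavy chains, from 0.50 to 0.93, and Psmb8 at -0.36 is the lowest.

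B2m, the invariant light chain that every class I heavy chain needs to reach the surface, was among the brightest genes on the arrays (its 2 probe sets stood at the 99.2 and 99.3 percentile of mean signal). Probe set 1449289_a_at read 6813 and 9258 by 430A, and 13371 and 19598 by MOE430_2. Within each type the Icsbp-deficient array was higher, and across types the groups overlapped. Its log2 ratio of 0.32 ± 0.08 missed the threshold (limma adjusted p = 0.053). It passed in 4 of 9 other settings that kept the block (lowest adjusted p 0.016), among them 1 probe set per gene (adjusted p = 0.0423). By that count 2 heavy chain probe sets called higher were about as unsteady, 1425336_x_at (5 of 9 settings) and 1450170_x_at (4 of 7). With scaling alone in place of quantile normalization the ratio was 0.49 (adjusted p = 0.0264). Probe set 1452428_a_at read 10055 and 11741, then 10481 and 14831, and its ratio was 0.20 ± 0.09 (adjusted p = 0.235). Both of its Icsbp-deficient signals lay above both wild type ones.

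The transporter is a dimer of Tap1 and Tap2. Tap1 was read by 1416016_at at 857 and 1137 by 430A, and at 739 and 1185 by MOE430_2. The groups did not overlap, and the ratio of 0.52 ± 0.15 (1.43-fold) had an adjusted p of 0.0718 over all tested probe sets by limma. The adjusted p was 0.0451 with 1 probe set per gene and 0.0471 with scaling alone, so the side of the threshold on which Tap1 falls depends on these choices. Its 3 other probe sets, 1420274_at, 1448177_at and 1449803_x_at, were under 70 on every array and were not tested. Tap2, by 1453913_a_at, was at 1030 and 1093, then 594 and 715, a ratio of 0.17 ± 0.15 (adjusted p = 0.601, 95% interval -0.15 to 0.49). Tapasin, encoded by Tapbp, was read by 1421812_at at 1390.1 and 1957, then 2156 and 2646 (0.40 ± 0.13, adjusted p = 0.116), and by 1450378_at at 664 and 846, then 220.03 and 259 (0.28 ± 0.15, adjusted p = 0.374). All 4 within-type ratios of Tapbp were above 0, from 0.25 to 0.49. The 6 tested probe sets of B2m, Tap1, Tap2 and Tapbp had a median ratio of 0.30.

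**Figure D3:**
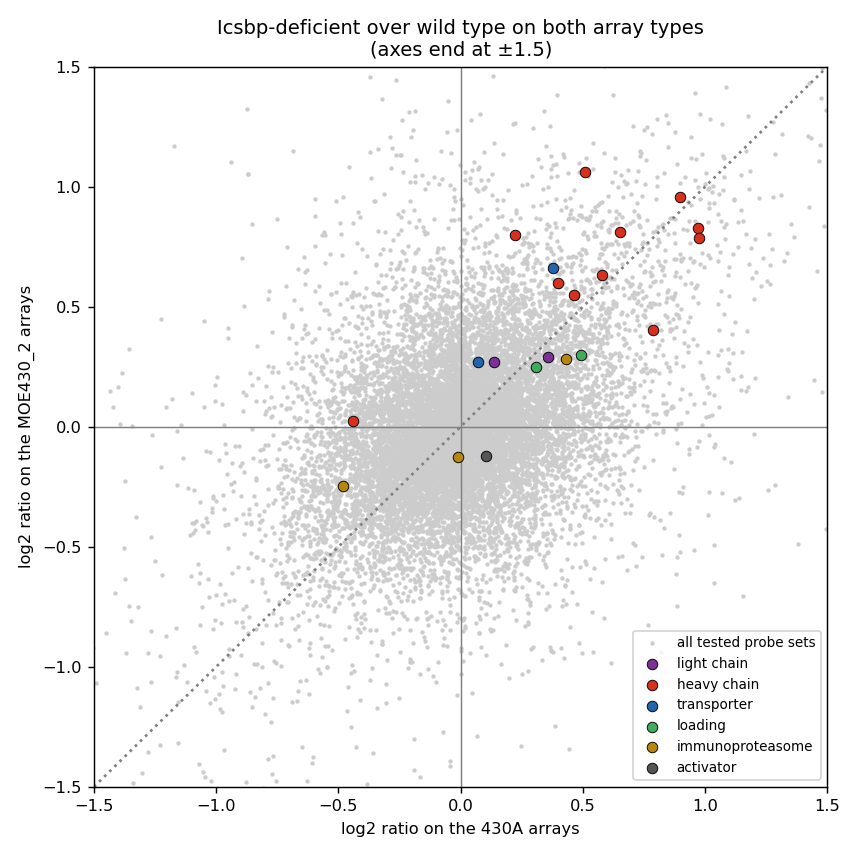
Log2 ratio on the 430A arrays (x axis) against that on the MOE430_2 arrays (y axis) for all 13576 tested probe sets (grey; those beyond 1.5 in size are not drawn) and the 21 members (coloured by role). Of the 11 heavy chain probe sets 10 lie in the upper right, where both ratios are above 0, and Psmb8 and Psmb10 lie in the lower left.

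None of the 3 immunoproteasome subunits passed, and their values went both ways. Of the 10 tested member probe sets outside the heavy chains 0 passed by limma, and 6 had an unadjusted p under 0.05 (background 18.7%). Psmb8 (LMP7), which takes the place of Psmb5, was read by 1422962_a_at at 3761 and 2692 by 430A, and at 2760.0 and 2315 by MOE430_2. Both Icsbp-deficient signals lay below both wild type ones, and the ratio of -0.36 ± 0.12 did not pass (limma adjusted p = 0.127, 95% interval -0.63 to -0.10). The second Psmb8 probe set, 1444619_x_at, is on the MOE430_2 array only and was dim, at 82.0 (wild type) and 131 (Icsbp-deficient), with no replicate and no test. Psmb9 (LMP2), which takes the place of Psmb6, went the other way in value, at 2009 and 2707, then 1358 and 1653, a ratio of 0.36 ± 0.13 (adjusted p = 0.156, 95% interval 0.07 to 0.64). Psmb10 (MECL-1), which takes the place of Psmb7, was at 2297 and 2262, then 1736 and 1566, a ratio of -0.07 ± 0.13 (adjusted p = 0.818, 95% interval -0.35 to 0.21). The intervals of Psmb8 and Psmb9, each taken before adjustment, did not overlap, and the difference itself was not tested. Of the 10 genes 7 lie on chromosome 17, where Psmb9, Tap1, Psmb8 and Tap2 follow each other. Psmb10 lies on chromosome 8, as does Irf8.

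Psme1, a subunit of the 11S activator that opens the proteasome, was at 3311 and 3518, then 4669 and 4449, by 1417056_at. The ratio was -0.01 ± 0.11 (limma adjusted p = 0.974), with values of 0.10 and -0.12 on the 2 types, and its interval ran from -0.26 to 0.24. Its sign turned with scaling alone, at 0.0085.

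The constitutive catalytic subunits, which the immunoproteasome subunits replace, did not pass either. Psmb5 was at 0.10 ± 0.12 (limma adjusted p = 0.698), Psmb6 at -0.02 ± 0.12 (adjusted p = 0.943) and Psmb7 at -0.33 ± 0.10 (adjusted p = 0.107). Of 25 tested probe sets of the other 20S subunits and assembly factors 0 were higher and 1 lower (background 3.06% and 2.22%). The lower one was of the assembly chaperone Psmg2 (1448212_at, -0.56 ± 0.14, adjusted p = 0.0431), whose other probe set was at -0.26. By limma 4 of the 25, all below 0, had an unadjusted p under 0.05, or 16%, near the 18.7% of all tested probe sets. Ratios of 11 of the 25 lay below 0 on both array types (background 32.9%) and those of 3 above 0 (29.9%). The 32 tested probe sets of the 19S regulator, which unfolds and feeds in ubiquitinated proteins, had a median of -0.14. By limma 0 of them passed in either direction, and 3, all below 0, had an unadjusted p under 0.05, which is 9.38% against 18.7% of all tested probe sets. On both array types the ratio lay below 0 for 21 of the 32 (background 32.9%) and above 0 for 3 (29.9%). The 43 probe sets of peptide loading and trimming genes, such as chaperones of the endoplasmic reticulum, also had a median of -0.14. Of these 0 passed by limma and 8 had an unadjusted p under 0.05, 7 of them below 0. These 8 are 18.6% of the list, close to the 18.7% of all tested probe sets. The sign leaned down, with ratios below 0 on both array types for 28 of the 43 (background 32.9%) and above 0 for 5 (29.9%).

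Among 15 tested probe sets of other class I and class I-like genes 2 were higher and 0 lower (background 3.06% and 2.22%), with a median log2 ratio of 0.42, and 5 had an unadjusted p under 0.05, all above 0 (background 18.7%). Probe set 1418536_at of H2-Q7 and H2-Q9, non-classical class I genes, read 698 and 1654, then 659 and 1019, a ratio of 0.90 ± 0.17 (limma adjusted p = 0.0118). Hfe, the class I-like protein that limits iron uptake and pairs with B2m, read 524 and 927, then 473 and 1166 by 1422645_at, a ratio of 1.00 ± 0.16 (2.01-fold, adjusted p = 0.00627). For both probe sets the Icsbp-deficient arrays lay above the wild type arrays. A second, dimmer Hfe probe set, 1450702_at, was at 0.46 ± 0.22 (adjusted p = 0.308). The probe set of the non-classical genes H2-T9, H2-T10 and H2-T22 was at 0.42 and did not pass (adjusted p = 0.131). Nor did H2-T23 at 0.12 (1449556_at), H2-M3 at 0.02 or the 2 probe sets of Cd1d1 at -0.17 and -0.20. Of the 15, 8 had ratios above 0 on both array types (background 29.9%), 2 below 0 on both (32.9%) and 5 of opposite sign. Class I genes share much sequence, so signals of these probe sets can include other class I transcripts.

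Of 34 tested probe sets of class I regulators and interferon signalling genes 2 were higher and 0 lower (background 3.06% and 2.22%). An unadjusted p under 0.05 by limma was seen for 7, or 20.6%, near the 18.7% of all tested probe sets. Ratios of 15 of the 34 lay above 0 on both array types (background 29.9%) and those of 5 below 0 (32.9%). Ifngr1, the ligand-binding chain of the interferon gamma receptor, by 1448167_at read 2565 and 5109, then 1233 and 2399, a ratio of 0.96 ± 0.12 (1.95-fold, limma adjusted p = 0.00133) with 0.98 and 0.95 on the 2 types. With 1 array left out, in the model without the block, it ran from 0.34 to 1.65, a range that also holds the difference between array types. The signalling factor Stat3 was at 0.61 ± 0.14 by 1460700_at (adjusted p = 0.033), while its brighter probe set 1426587_a_at was at 0.45 (adjusted p = 0.165) and the dimmer 1424272_at at -0.11 (adjusted p = 0.839). Irf1, an interferon-induced activator of class I genes, read 1176 and 1675, then 479.6 and 741, and its ratio of 0.55 ± 0.14 missed the threshold (adjusted p = 0.0516). It passed in 4 of 9 other settings that kept the block, among them 1 probe set per gene (limma adjusted p = 0.0303) and scaling alone (adjusted p = 0.0365).

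**Figure D4:**
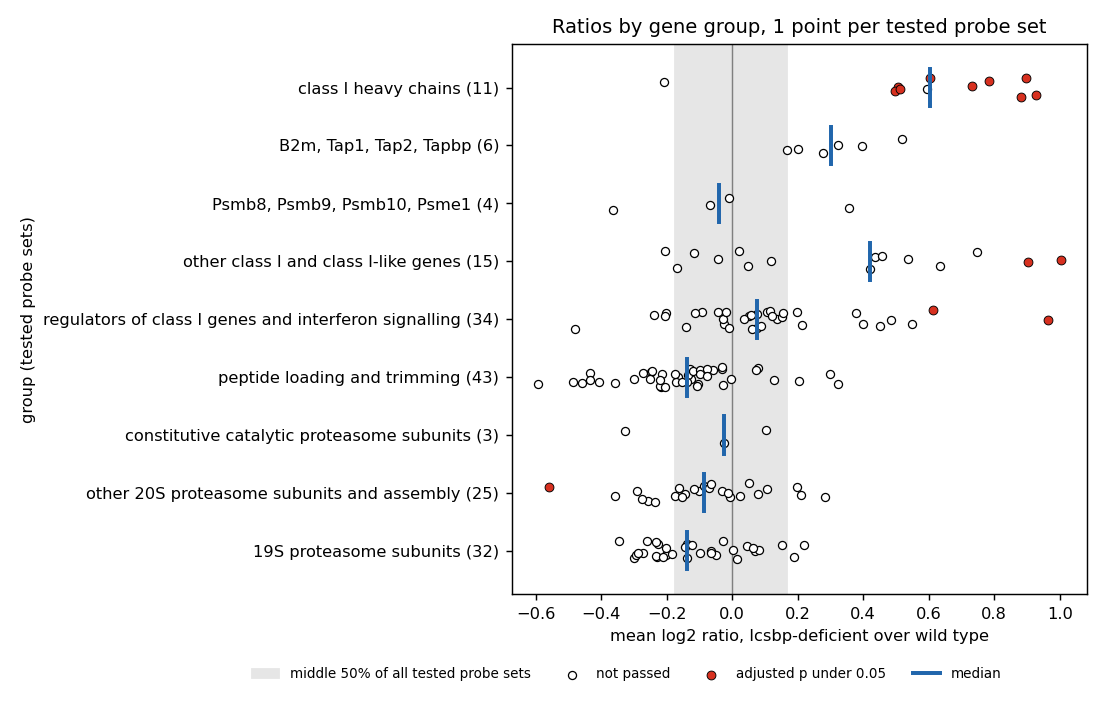
Mean log2 ratio of Icsbp-deficient over wild type (x axis) for each tested probe set, in rows for the 3 sets of members and the 6 lists of related genes, with the number of tested probe sets in brackets. Red points passed at a limma adjusted p under 0.05, blue lines are medians (0.60 for the heavy chains, 0.42 for other class I genes, -0.14 for the 19S subunits), and the grey band spans the middle of all tested probe sets, from -0.18 to 0.17.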

How the data were processed

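The authors deposited a linear intensity for each probe set. The submitters' processing notes name GCOS for the MOE430_2 arrays. Per the labels' protocols an ENZO kit labelled the Icsbp-deficient 430A sample and a one-cycle kit the MOE430_2 samples. No kit is stated for wild type 430A, so on that array type genotype cannot be told apart from a difference in processing. Over the 22626 shared, non-control probe sets the deposited trimmed mean (2% from each end) was 498 for wild type and 167 for Icsbp-deficient by 430A, and 160.4 and 159 by MOE430_2.

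All arrays were brought to a trimmed mean of 500, and log2(signal + 50) was quantile normalized within each array type. Ratios on this scale understate changes of dim genes. Printed signals are scaled, before the offset and quantile steps. Probe sets whose mean over the 4 arrays was under the 40th percentile (9050) were left untested, and 13576 were fitted in limma 3.58.1 (R 4.3.3), blocking on array type, with a two-sided test moderated along an intensity trend. P-values were adjusted by Benjamini-Hochberg over all 13576, at a threshold of 0.05. This left 1 residual and 9.34 prior degrees of freedom. ± is the moderated SE of 2 ratios, borrowed mostly from other probe sets, and the number of arrays limits the precision. An exact permutation test of 2 against 2 arrays cannot go below p = 0.333. The fit was tested on simulated data with equal noise for all probe sets and with changes larger than those of the members.

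Symbols came from the platform annotation of each array, updated through RefSeq gene identifiers (GRCm38.p6). Of the shared probe sets 20380 had 1 symbol, 691 several and 1555 none here. Of 119 genes on the related lists 109 had a shared probe set. Named genes are all members, passing list genes, the constitutive catalytic subunits and Irf8. Irf1, H2-T23, H2-M3, Cd1d1, the probe set of H2-T9, H2-T10 and H2-T22, and the other probe sets of passing genes were added after their values were seen. Members, lists and markers were chosen with earlier results of these data known. Replicates were separate preparations. Alternatives tried were other normalizations, offsets, filters, variance models and blocks, 1 probe set per gene, single array types and leaving out each array.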

Additional observations from a re-analysis of the deposited data

How the results depend on the processing

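The count of 9 higher member probe sets was within 1.5 times of its value with scaling alone (11), cyclic loess (10), the values as deposited (7), an offset of 16 (7), a floor of 50 (9) and a 60th percentile filter (9). It was 4 with no filter on low signals, 3 without the intensity trend and 0 without the array type block. The fit without the block also used values quantile normalized across all 4 arrays, so these 2 changes cannot be told apart. With 1 probe set per gene 4 of the 10 tested member probe sets passed, 1 each of H2-K1, H2-D1, B2m and Tap1. Leaving out each array in turn gave 0 to 2, in the model without the block, since the blocked one has no residual degrees of freedom then; the lone array of a group is assumed to vary like the others. No member probe set was lower in any of these settings. Of the related lists 4 probe sets were higher, and 2 were with no filter, 2 without the trend, 0 without the block and 0 to 1 with an array left out. The 1 lower probe set became 2 with scaling alone and 0 with the values as deposited, an offset of 16, no filter, no trend, no block or any array left out. The causes were not tested. No paired analysis beyond the array type block was possible because the labels give no shared replicate numbers.

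Psme1 turned sign with scaling alone (0.0085) and without the block (0.0035). The counts and ratios with an array left out come from fits without the block. In each, 1 group is left with 1 array type only, so these values also hold the difference between array types. With an array left out, ratios ran from -0.13 to 0.14 for Psme1, -0.35 to 0.23 for Psmb10, -0.036 to 0.76 for Psmb9, -0.17 to 0.50 for Tap2, -0.39 to 0.95 for Tapbp 1450378_at, -0.079 to 0.46 for B2m 1452428_a_at, -0.28 to 1.49 for H2-K1 1450534_x_at and -0.89 to 0.44 for the H2-Q5 and H2-K1 probe set. Outside the members they ran from -0.019 to 1.12 for Irf1, -0.21 to 0.41 for Psmb5 and -0.15 to 0.11 for Psmb6. Without a change of sign they ran from -0.73 to -0.060 for Psmb8, 0.085 to 0.56 for B2m 1449289_a_at, 0.045 to 0.90 for H2-K1 1425336_x_at, 0.091 to 1.45 for 1427746_x_at and 0.39 to 1.40 for 1424948_x_at. The other 6 passing member probe sets ran between 0.31 and 1.21. The count without the dimmest passing probe set, chosen after seeing the data, was 8.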
